A study of Mus musculus with 8 samples.

Results

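Transforming growth factor beta (TGF-beta) is a signal that cells secrete in a locked form, and the genes described here encode its ligands, its receptors and the proteins that hold or release it. The 10 genes, of 32285 in the count table, were chosen by name: the ligands Tgfb1, Tgfb2 and Tgfb3, the latency binder Ltbp1, the integrin chains Itgav, Itgb6 and Itgb8, and the receptors Tgfbr1, Tgfbr2 and Tgfbr3. All 10 had counts. Single-cell RNA libraries had been made from lungs of C57BL6/J mouse pups aged 5 days, all labelled WT (wild type). The tissue had been frozen and thawed, and a flow sort had kept immune, endothelial and epithelial cells. All pups had met lipopolysaccharide, a bacterial product that causes inflammation, on day 14 of gestation. After birth the pups of 4 libraries breathed 65% oxygen (hyperoxia, to model bronchopulmonary dysplasia, the lung disease of preterm infants) and the pups of 4 libraries breathed 21% oxygen (air). The deposited table pools all cells, and 0 of the 8 libraries could be tied to cells, so no value here sets hyperoxia against air, and each describes both together.

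Each ligand is made as a longer chain whose front part, the latency-associated peptide, stays wrapped around the mature factor after it is cut. Latent TGF-beta binding proteins such as Ltbp1 tie this complex to the matrix. Integrins that contain the alpha-v chain can pull the ligand free by gripping an Arg-Gly-Asp motif, where the peptide holds one. The freed ligand joins the type II receptor Tgfbr2, which activates the type I receptor Tgfbr1 and through it Smad proteins, while Tgfbr3 (betaglycan) presents ligand, above all TGF-beta 2, to the type II receptor. In the lung the pathway shapes alveoli during growth and drives scarring in disease, and the alpha-v beta 6 integrin is known from epithelium.

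The motif that alpha-v integrins grip was looked up in the 3 ligand genes, since the results below place Tgfb2 and Itgb6 in the same cells. Each line gives 45 bases of the coding sequence, 5′ to 3′, of an annotated transcript in GENCODE M21 (build GRCm38). Capitals mark the Arg-Gly-Asp codons, beginning at codon 244 in Tgfb1 and at codon 261 in Tgfb3, and for Tgfb2 the codons from 289 on that align with those of Tgfb3.
Tgfb1: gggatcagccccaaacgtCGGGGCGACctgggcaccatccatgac
Tgfb2: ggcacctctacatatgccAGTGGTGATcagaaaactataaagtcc
Tgfb3: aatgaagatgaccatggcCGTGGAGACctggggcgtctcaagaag
Read in frame, Tgfb1 and Tgfb3 each held the motif 1 time and Tgfb2 held it 0 times. Tgfb2, the only ligand counted together with Itgb6 per cell below, is thus the one without the motif. Tgfb1, which holds the motif, had a UMI in 34 of 118 cells of the AT1 gate described below. How often Tgfb1 and Itgb6 shared a cell was not counted. Over the last 336 coding bases, which follow the protease site and encode the mature factor, 73.5% of bases were the same in Tgfb1 and Tgfb3, 70.8% in Tgfb2 and Tgfb3, and 68.8% in Tgfb1 and Tgfb2.

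Cells were grouped by counts of a few marker genes, each cell going to the first gate it passed. The unit of counting is the UMI, a tag that marks 1 captured RNA molecule. The gates gave 737 AT2 cells (the surfactant-making cells of the alveolus), 118 AT1 cells (the thin cells of gas exchange), 601 endothelial cells, 962 alveolar macrophages, 366 interstitial macrophages, 3348 monocytes, 334 neutrophils, 609 T cells and 4731 other cells. Levels are CPM, a gene's UMIs summed over the cells of a group and scaled to that group's total in the usual way, and intervals are 95% Poisson or binomial intervals that cover counting error only. Median UMIs per cell lay between 2724 in endothelium and 7683.5 in interstitial macrophages. The columns of the table form 8 runs of barcodes of 282 to 3355 cells. A run is no known replicate, so values per run are given only as a range and only from runs with at least 20 cells of a group. Across runs, 12 barcode sequences occurred more than 1 time, and 582 cells passed several gates, 188 of them among the 601 endothelial cells.

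The gates were checked with 6 further markers each. All 6 were highest in their own group for AT2, AT1, endothelium, neutrophils and T cells, 5 of 6 for both macrophage groups and 3 of 6 for the monocyte gate. In the AT1 gate 91 cells kept these markers and 27 lacked them. The 27 cells held Dppa5a, a gene best known from pluripotent cells, at 5771 CPM and the gate gene Rtkn2 at 404 CPM, against 48.9 and 3222 CPM in the 91 cells. Of the 27 cells, 17 were in run 6 and 0 in run 1, the only runs with at least 20 cells of the gate (55 and 41 cells). For the 10 genes, and for the named genes of the pathway lists that the AT1 gate led, AT1 levels are therefore also given for the 91 and the 27 cells apart. Mesenchymal markers summed to 1.73 to 37.9 CPM per group, highest in endothelium, and 4 cells passed a mesenchyme gate, so fibroblasts and smooth muscle, known sources of TGF-beta proteins, are all but missing from this sorted material.

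The 10 genes fell into distinct patterns over the 9 groups. Tgfb2 and Itgb6 were concentrated in the AT1 gate and Ltbp1 and Tgfbr3 in endothelium. Tgfb1, Tgfbr1, Tgfbr2 and Itgav were found in every group, Tgfb3 was low with its highest level in AT2 cells, and Itgb8 had 16 UMIs in all. A gene was called for its leading group where it reached at least 20 CPM there and at least 4 times its CPM in all other cells. Of the 8 genes that reached 20 CPM, 4 were called (Tgfb2, Itgb6, Ltbp1 and Tgfbr3), beside 2858 of 10299 genes over the whole table, or 27.8%. The leading group was picked for being highest, so its fold is a description and no test was made.

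**Figure D1:**
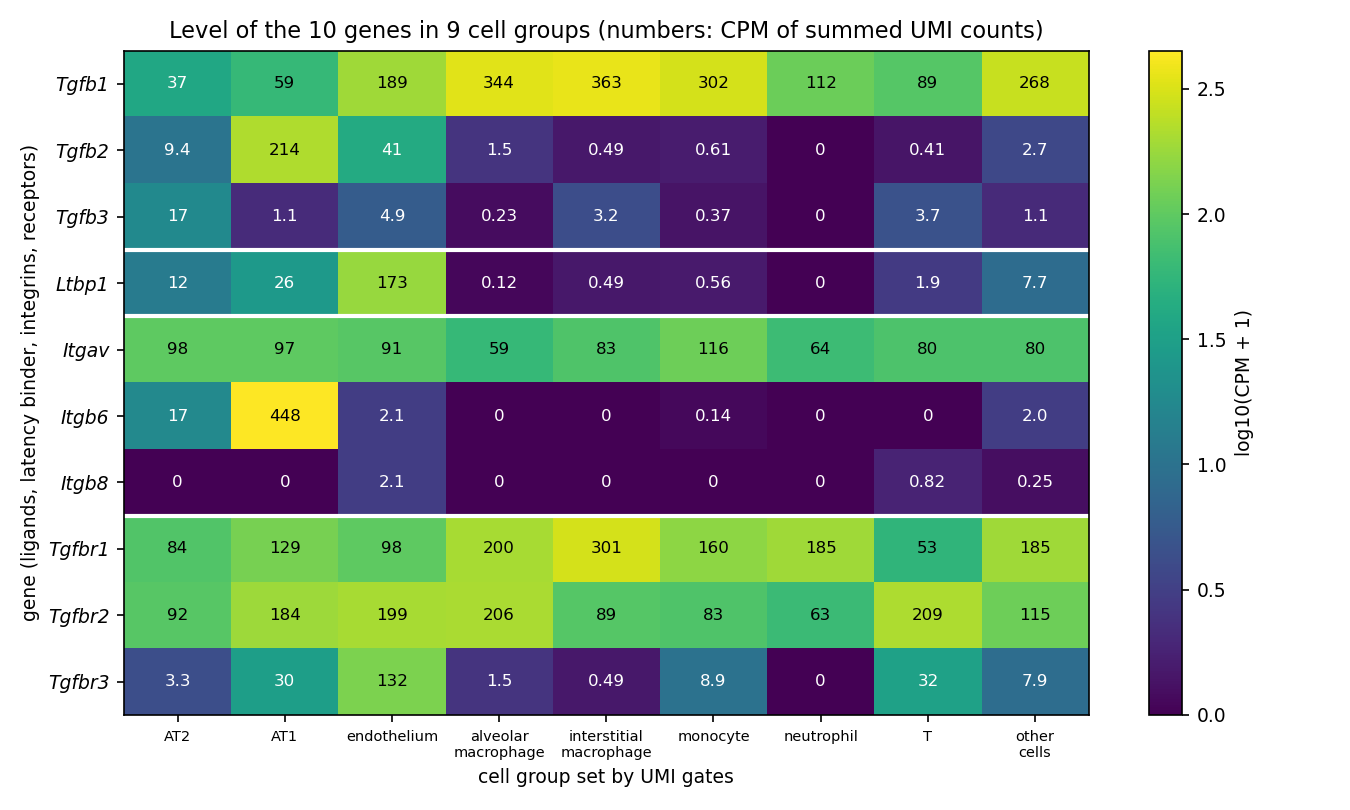
CPM of summed UMI counts of each of the 10 genes (rows, ordered as ligands, latency binder, integrin chains and receptors) in each of the 9 gated cell groups (columns), with colour giving log10(CPM + 1). Itgb6 at 448 CPM and Tgfb2 at 214 CPM stand out in the AT1 column, and Ltbp1 at 173 CPM and Tgfbr3 at 132 CPM in the endothelium column; colours compare groups within a gene, not genes with each other.

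Tgfb1 (chr7:25687002-25705077), the ligand most used by immune cells, was a transcript of macrophages and monocytes. It had 363 CPM in interstitial macrophages (interval 344 to 382), 344 CPM in alveolar macrophages (331 to 356), 302 CPM in monocytes and 268 CPM in other cells. Endothelium had 189 CPM, neutrophils 112 CPM, T cells 88.8 CPM, the AT1 gate 59.4 CPM and AT2 cells 37.4 CPM (32.3 to 43.1). The intervals of both macrophage groups overlapped, as did those of neutrophils and T cells, while the other neighbours in this order did not overlap. Neutrophils were above T cells in 0 of the 3 runs with at least 20 cells of both. By run, interstitial macrophages ranged from 291 to 569 CPM (median 408, 6 runs) and AT2 cells from 31.3 to 45.5 CPM (median 36.8, 8 runs), so every run placed these groups far apart. The fold of interstitial macrophages over all other cells was only 1.45 (1.37 to 1.53), because the gene was common elsewhere too. Of the 601 endothelial cells, 188 also passed a later gate, and the part of other cells' RNA in the endothelial level was not tested. In the AT1 gate the level was 72.4 CPM (51.7 to 98.6) in the 91 cells that kept AT1 markers and 39.2 CPM (21.5 to 65.8) in the 27 that lacked them. After each cell was thinned to 1000 UMIs, 29.5% of interstitial macrophages, 29.2% of alveolar macrophages, 27.2% of monocytes and 3.80% of AT2 cells held a Tgfb1 UMI, against 90.7%, 88.0%, 68.5% and 19.0% before thinning. Thinning removed most of the gap between macrophages and monocytes and left the gap to AT2 cells.

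Tgfb2 (chr1:186622792-186705989), a ligand of epithelium and of developing organs, had its highest level in the AT1 gate. There it reached 214 CPM (185 to 247), against 40.8 CPM in endothelium (33.1 to 49.7), 9.40 CPM in AT2 cells, 2.72 CPM in other cells and 1.51 CPM in alveolar macrophages. The remaining immune groups held it at 0.41 to 0.61 CPM, and neutrophils had 0 UMIs, which allows up to 1.78 CPM. The AT1 gate stood 64.5-fold above all other cells (53.3 to 78.1), and 12.1% of the genes that reached 20 CPM in that gate were called in its favour. With the 91 AT1-gate cells that kept their markers the level was 346 CPM (298 to 398), and in the 27 that lacked them it was 11.2 CPM (3.05 to 28.7). Run 1 held 379 CPM and run 6 held 208 CPM. Without run 1 the level was 147 CPM, and the log2 fold over all other cells was 5.30, against 6.01 with all runs. Of the 118 cells, 50 had 0 UMIs of Tgfb2, 27 had 1 UMI, 25 had 2 to 4 UMIs and 16 had at least 5, up to 10 in a cell. The signal thus came from many cells: the 10 cells with the most held 36.9% of the UMIs.

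Tgfb3 (chr12:86056745-86079041), a ligand needed for lung and palate formation in the mouse, was a low transcript of AT2 cells. It had 17.0 CPM there (13.6 to 21.0), under the 20 CPM needed for a call, and 50.9% of its 171 UMIs. Endothelium had 4.94 CPM, T cells 3.71 CPM, interstitial macrophages 3.21 CPM, the AT1 gate 1.10 CPM and other cells 1.07 CPM. AT2 cells were above all other cells in 8 of 8 runs, with 10.3 to 27.8 CPM (median 19.2), and the fold was 14.6 (10.7 to 19.9). The intervals of all groups after AT2 overlapped with their neighbours. Neutrophils had 0 UMIs. In the AT1 gate, 1 UMI of Tgfb3 lay in the 91 cells that kept AT1 markers and 0 in the 27 that lacked them. The coding gene Ttll5 overlaps Tgfb3 on the opposite strand, and how the counts treated strand is not given in the sources used here. Ttll5 had 41.1 CPM in AT2 cells and more in the AT1 gate (122 CPM) and in alveolar macrophages (97.5 CPM), where Tgfb3 stood at 1.10 and 0.23 CPM.

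Ltbp1 (chr17:75005568-75392512), which links the latent ligand to matrix fibres, was an endothelial transcript. Endothelium had 173 CPM (156 to 190), against 26.4 CPM in the AT1 gate, 11.8 CPM in AT2 cells, 7.66 CPM in other cells and 1.85 CPM in T cells. Monocytes and both macrophage groups had 0.12 to 0.56 CPM and neutrophils 0 UMIs. Endothelium was 40.0-fold above all other cells (34.5 to 46.4) and held 56.5% of the gene's 741 UMIs; 14% of the genes that reached 20 CPM in endothelium were called in its favour. Over 5 runs endothelium ranged from 75.9 to 277 CPM (median 138), above all other cells in each. In AT2 cells the runs spread from 0 to 73.1 CPM (median 8.44), so 1 run stood well above the others there. Ltbp1 had 21.7 CPM (11.2 to 37.9) in the 91 AT1-gate cells with AT1 markers and 33.6 CPM (17.4 to 58.7) in the 27 without. A UMI of Ltbp1 was seen in 147 of 601 endothelial cells, and 24 of these cells held at least 5. Of 4 cells that passed the mesenchyme gate, Ltbp1 stood at 933 CPM (653 to 1292, 36 UMIs), a level that rests on those 4 cells.

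Itgav (chr2:83724397-83806916), the alpha-v chain that partners several beta chains, varied least of the 4 genes found in every group. It had 116 CPM in monocytes (111 to 121), 97.9 CPM in AT2 cells, 96.8 CPM in the AT1 gate, 90.6 CPM in endothelium and 82.6 CPM in interstitial macrophages. Other cells had 80.1 CPM, T cells 79.7 CPM, neutrophils 64.1 CPM and alveolar macrophages 59.0 CPM (54.0 to 64.4). Only the step from monocytes to AT2 cells had intervals that did not overlap, and monocytes were above AT2 cells in 6 of 8 runs. The monocyte fold over all other cells was 1.47. The AT1-gate cells had 90.5 CPM (67.2 to 119) with AT1 markers and 107 CPM (75.4 to 146) without. By run, alveolar macrophages ranged from 38.2 to 154 CPM (median 61.5) and AT2 cells from 52.3 to 153 CPM (median 88.3), a spread between runs as large as that between groups.

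Itgb6 (chr2:60598292-60722643), the beta chain that forms the TGF-beta-activating alpha-v beta 6 integrin, was the most unevenly spread gene of the 10 by fold. The AT1 gate had 448 CPM (405 to 493), against 16.6 CPM in AT2 cells (13.3 to 20.6), 2.06 CPM in endothelium, 2.00 CPM in other cells and 0.14 CPM in monocytes. Both macrophage groups, neutrophils and T cells had 0 UMIs. Of these, alveolar macrophages set the tightest limit, since 0 UMIs among 8623598 allow up to 0.35 CPM. In these immune groups, which are not known to make Itgb6, the level was thus 0 to 0.14 CPM. RNA that floats free in the suspension can give UMIs in any droplet, and its part in the Itgb6 levels was not tested. The AT1 gate stood 229-fold above all other cells (189 to 278) and held 73.2% of the 556 UMIs. In the 91 cells that kept AT1 markers the level was 719 CPM (650 to 793), and in the 27 that lacked them 28.0 CPM (13.4 to 51.5).

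The Itgb6 signal was broad among AT1-gate cells: 90 of 118 held a UMI (76.3%, 67.6 to 83.6), 28 had none and 29 held at least 5, up to 20 in a cell. After thinning to 1000 UMIs the share was 28.8% in the AT1 gate and 2.85% in AT2 cells. Run 1 held 761 CPM and run 6 held 433 CPM, and run 6 was the run with most of the cells that lacked AT1 markers. Without run 1 the level was 319 CPM, and the log2 fold over all other cells was 7.22, against 7.84 with all runs. AT2 cells, where 62 of 737 held a UMI, were above endothelium in 5 of 5 runs. Counts of both chains of the integrin in the same cell were found in 40 of 118 AT1-gate cells (33.9%, 25.4 to 43.2) and in 35 of 737 AT2 cells (4.75%, 3.33 to 6.54). Tgfb2 and Itgb6 were found together in 66 of the 68 AT1-gate cells that held Tgfb2.

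Itgb8 (chr12:119158022-119238802), the beta chain of the other integrin best known for releasing TGF-beta, was barely detected. Its 16 UMIs lay in 10 cells: 5 UMIs in endothelium, 4 in T cells and 7 in other cells. The other groups had 0, which allows up to 0.14 CPM in monocytes and up to 3.30 CPM in the AT1 gate. Endothelium had 2.06 CPM (0.67 to 4.81), and without run 2 it had 0, so the order of groups for this gene rests on a handful of molecules.

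**Figure D2:**
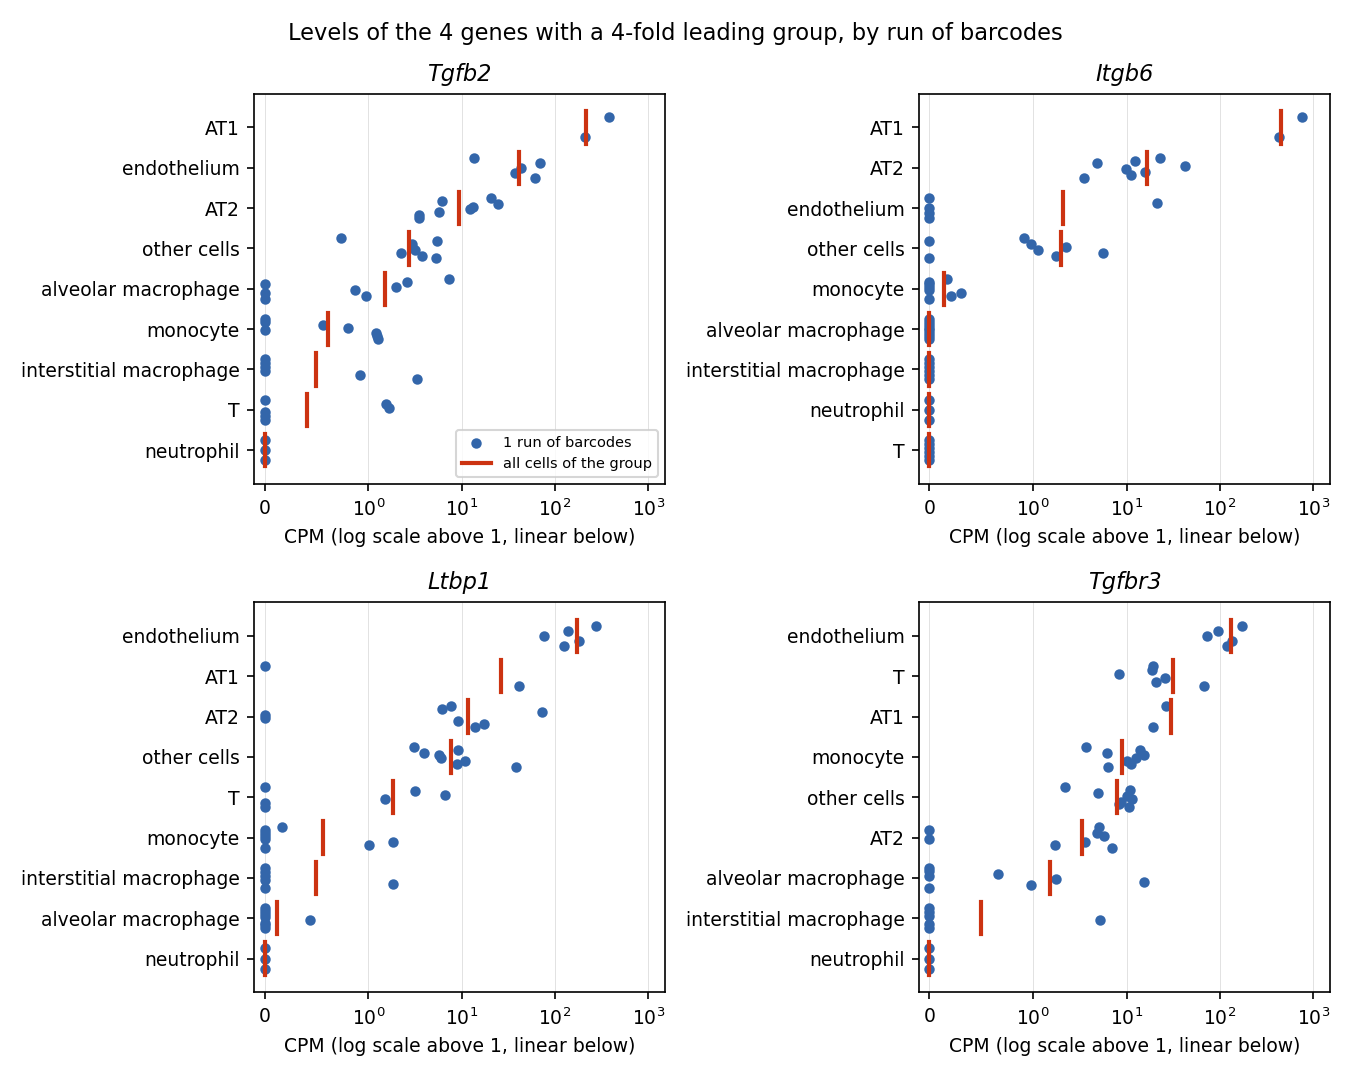
CPM of Tgfb2, Itgb6, Ltbp1 and Tgfbr3 (horizontal axis, linear below 1 and logarithmic above) in the 9 groups, ordered from highest to lowest; each point is a run of barcodes with at least 20 cells of the group and each red bar is the group as a whole. Both AT1 points of Itgb6 (761 and 433 CPM) lie to the right of every other group, and the 5 endothelial points of Tgfbr3 (72.6 to 171 CPM) lie to the right of the T cell points.

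Tgfbr1 (chr4:47353222-47414931), the type I receptor kinase that phosphorylates Smad2 and Smad3, was highest in interstitial macrophages. They had 301 CPM (284 to 318), against 200 CPM in alveolar macrophages (190.3 to 209), 185 CPM in neutrophils, 185 CPM in other cells (179.8 to 189.9) and 160 CPM in monocytes. The AT1 gate had 129 CPM (106 to 154), endothelium 97.6 CPM, AT2 cells 83.8 CPM (76.1 to 92.2) and T cells 52.9 CPM (46.7 to 59.8). Interstitial macrophages were above all other cells in 6 of 6 runs, although by only 1.88-fold (1.77 to 2.00). The neutrophil interval overlapped those of alveolar macrophages and of other cells, while alveolar macrophages lay just above other cells. The endothelial interval overlapped those of the AT1 gate and of AT2 cells, while the AT1 gate as pooled lay above AT2 cells. By run the AT1 gate had 90.9 CPM in run 1 and 222 CPM in run 6. Endothelium was above AT2 cells in 5 of 5 runs. The AT1-gate cells with and without AT1 markers had 125 CPM (97.2 to 158) and 135 CPM (99.2 to 178). Run 6 gave the highest Tgfbr1 level in 7 of 9 groups, for example 415 CPM in alveolar macrophages, where the runs had a median of 192 CPM. Without run 6 interstitial macrophages had 240 CPM and were still the highest group. For Itgav run 6 was highest in 5 of 9 groups and for Tgfb1 in 0 of 9. Run 6 had a median of 4200 UMIs per cell and 2.86% mitochondrial UMIs, inside the range of the other runs (3246 to 11587 UMIs and 1.91% to 2.96%), and what sets it apart was not tested.

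Tgfbr2 (chr9:116084293-116175360), the type II receptor that binds ligand first, was high in 4 groups at about the same level. T cells had 209 CPM (196 to 222), alveolar macrophages 206 CPM (196 to 215), endothelium 199 CPM (182 to 218) and the AT1 gate 184 CPM (157 to 214). Other cells had 115 CPM, AT2 cells 91.9 CPM, interstitial macrophages 89.3 CPM, monocytes 83.1 CPM and neutrophils 63.5 CPM (52.0 to 76.7). The intervals of the first 4 groups overlapped, and T cells kept the first place in 9 of 15 alternative settings, losing it to alveolar macrophages, endothelium or the AT1 gate in the others. In the AT1 gate Tgfbr2 had 232 CPM (193 to 276) in the 91 cells with AT1 markers and 109 CPM (77.7 to 149) in the 27 without, so the gate's level depends on which cells it holds. Interstitial macrophages, which led for Tgfbr1, were in the lower range for Tgfbr2, whereas T cells, lowest for Tgfbr1, led for Tgfbr2. A UMI of both receptors was found in 47.4% of alveolar macrophages (44.2 to 50.6) and 43.2% of interstitial macrophages (38.0 to 48.4), against 18.1% of T cells, 17.1% of monocytes and 9.82% of endothelial cells. Those shares also follow depth, since both macrophage groups had the highest median UMIs per cell.

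T cells were not uniform for the receptors. Splits of this group, chosen after the levels had been seen, gave 195 cells with gamma-delta receptor transcripts (Trdc and Tcrg-C1), 163 with Cd8 transcripts, 62 with Cd4 and 189 remaining cells. Tgfbr2 had 252 CPM in the gamma-delta cells (229 to 275), 206 CPM in the Cd8 cells (181 to 234), 288 CPM in the Cd4 cells (236 to 349) and 134 CPM in the remaining cells (115 to 154). Of the 3 runs with at least 20 cells of both kinds, the gamma-delta cells were above the Cd8 cells in 1, so this order did not hold over runs. Runs spread from 88.1 to 370 CPM in the gamma-delta cells and from 113 to 225 CPM in the Cd8 cells. Tgfbr3 was at 152 CPM in the Cd4 cells (115 to 198), against 17.4 CPM in the Cd8 cells, 8.03 CPM in the gamma-delta cells and 43.9 CPM in the remaining cells. The Cd4 cells thus carried Tgfbr3 at a level whose interval overlapped that of endothelium. Cd4 reached 20 cells in 1 run only, so no spread over runs can be given for that split.

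Tgfbr3 (chr5:107106570-107289629), the co-receptor betaglycan, was otherwise highest in endothelium among the 9 groups. Endothelium had 132 CPM (118 to 148), against 31.7 CPM in T cells, 29.7 CPM in the AT1 gate, 8.91 CPM in monocytes, 7.91 CPM in other cells and 3.33 CPM in AT2 cells. Both macrophage groups had 0.49 to 1.51 CPM and neutrophils 0 UMIs. The 4 cells that passed the mesenchyme gate had 233 CPM (107 to 443, 9 UMIs), a level that rests on those 4 cells. Endothelium was 15.8-fold above all other cells (13.8 to 18.1) and above T cells in 5 of 5 runs, with 72.6 to 171 CPM (median 120). A UMI was seen in 188 of 601 endothelial cells (31.3%, 27.6 to 35.2), and 119 of these held just 1. Unlike the AT1 gate for Tgfb2 and Itgb6, the AT1-gate cells that kept and lacked AT1 markers had overlapping intervals for Tgfbr3, at 27.2 CPM (15.2 to 44.8) and 33.6 CPM (17.4 to 58.7).

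**Figure D3:**
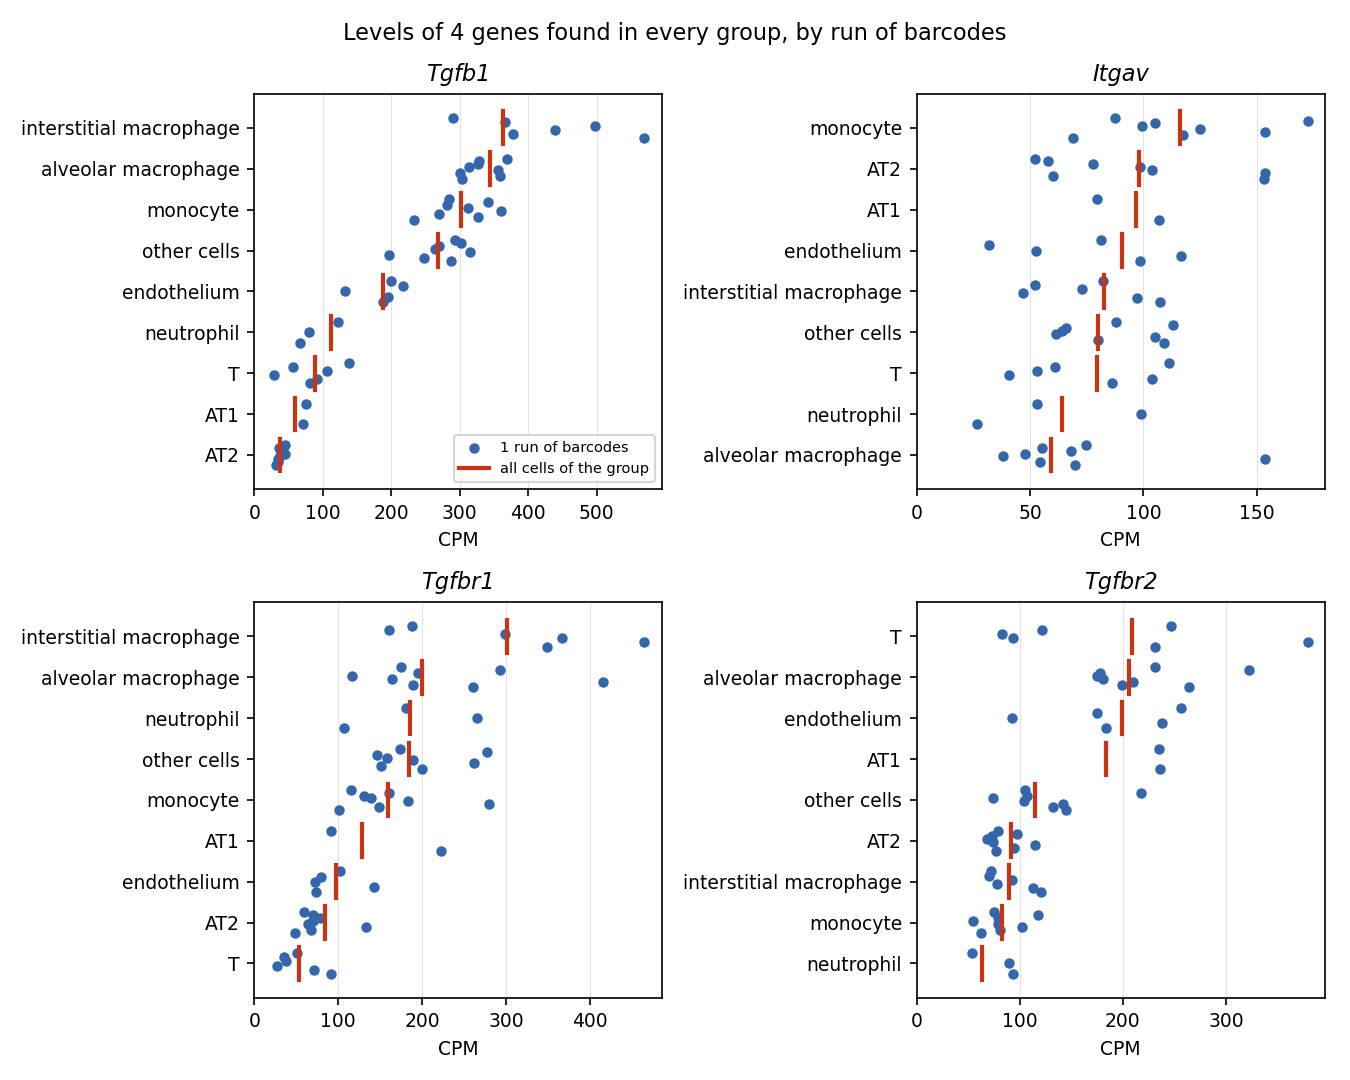
CPM of Tgfb1, Itgav, Tgfbr1 and Tgfbr2 (horizontal axis, linear) in the 9 groups, ordered from highest to lowest; each point is a run of barcodes with at least 20 cells of the group and each red bar is the group as a whole. The groups separate for Tgfb1, with AT2 runs at 31.3 to 45.5 CPM and interstitial macrophage runs at 291 to 569 CPM, while for Itgav the spread between runs is as wide as that between groups.

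The monocyte gate joins cells with Ly6c2 and F13a1, markers of classical monocytes that enter tissue from blood, and cells with Ace and Adgre4, markers of nonclassical monocytes that patrol vessels. The arms, compared after the levels had been seen, held 2040 cells for Ace and Adgre4 alone, 967 for Ly6c2 and F13a1 alone and 341 for both. Tgfb1 was at 351 CPM in the Ace and Adgre4 arm (340 to 363), against 218 CPM in the Ly6c2 and F13a1 arm (208 to 229). Tgfbr1 was at 228 CPM (219 to 238), against 81.9 CPM (75.6 to 88.5), in the same order of arms. Itgav was at 173 CPM (165 to 182) in the Ace and Adgre4 arm, against 51.3 CPM (46.4 to 56.6) in the Ly6c2 and F13a1 arm. Each of Tgfb1, Tgfbr1, Tgfbr2, Tgfbr3 and Itgav was higher in the Ace and Adgre4 arm in 8 of 8 runs, as were Nrros, which anchors latent TGF-beta 1 on myeloid cells in the mouse, and Zfyve9, which brings Smads to the receptor. Tgfbr2 was at 103 CPM (97.3 to 110) in the Ace and Adgre4 arm, against 63.4 CPM (57.9 to 69.2) in the Ly6c2 and F13a1 arm, and in 1 run its levels were 68.0 and 64.6 CPM. The leukocyte gene Ptprc also was higher in the Ace and Adgre4 arm, at 1473 CPM against 907 CPM, and median UMIs per cell were 3561.5 in that arm and 5469 in the Ly6c2 and F13a1 arm. The part of RNA content in these differences was not tested. Cells of both arms had 349 CPM of Tgfb1, 132 CPM of Tgfbr1 and 92.5 CPM of Itgav.

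**Figure D4:**
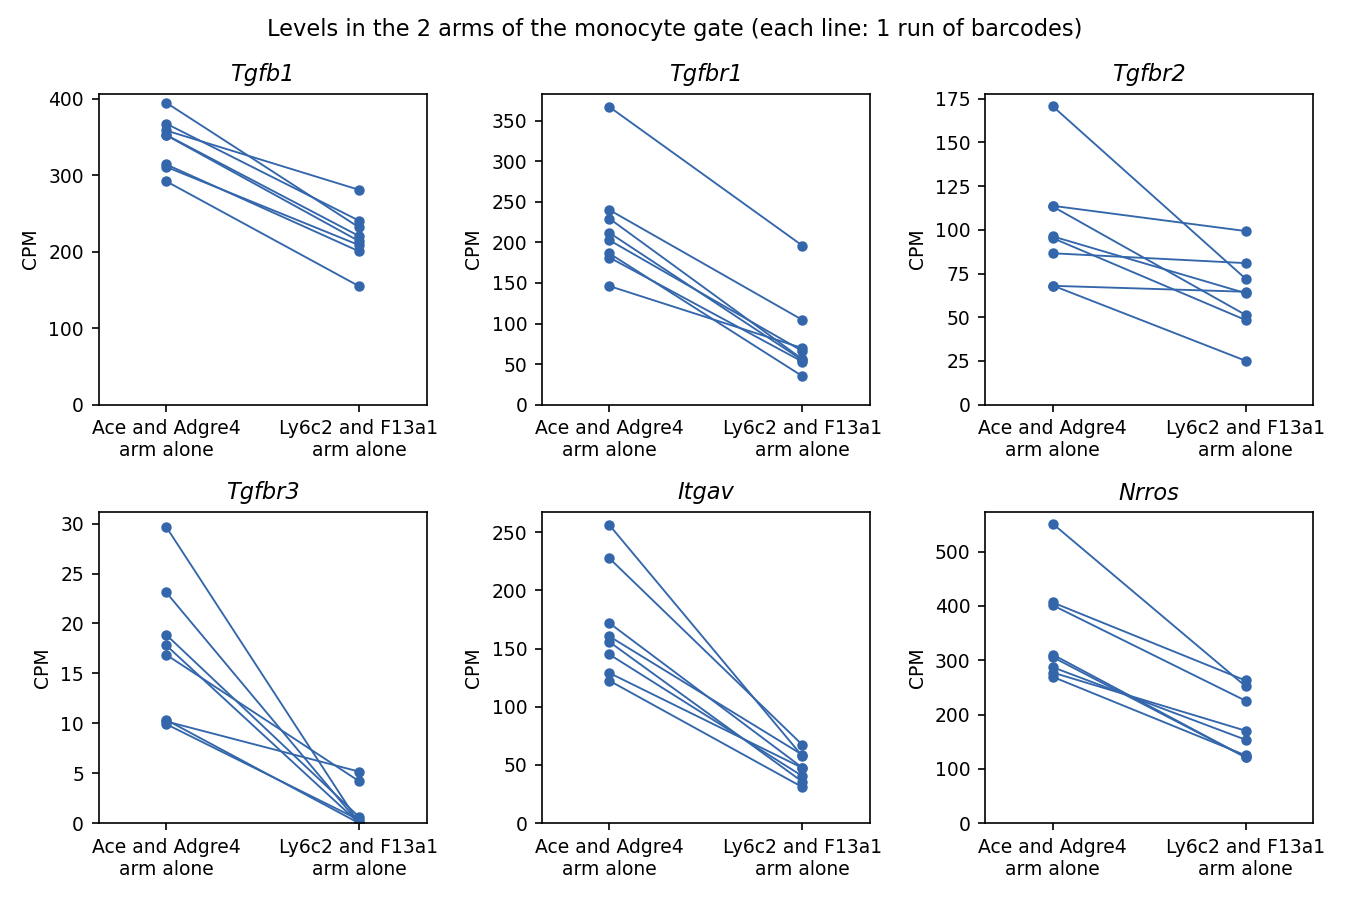
CPM (vertical axis, from 0) of 5 of the genes and of Nrros in cells of the monocyte gate that passed by Ace and Adgre4 alone (left) or by Ly6c2 and F13a1 alone (right); each line joins both values of a run of barcodes. All lines fall to the right, from 20 or more cells in each arm of each of the 8 runs.

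Endothelium was split by further marker gates into 47 venous, 95 general capillary, 86 arterial, 33 lymphatic and 157 Car4 capillary cells, with 183 cells in none. The Car4 capillary cell is a large cell that covers gas-exchange surface. Ltbp1 had 618 CPM in venous cells (520 to 730), 151 CPM in arterial, 140 CPM in general capillary, 114 CPM in lymphatic and 53.1 CPM in Car4 capillary cells (37.6 to 72.8). The venous interval lay above all others, and 34 of the 47 venous cells held a UMI. Tgfb2 also was highest in venous cells, at 129 CPM (86.4 to 185), against 23.7 CPM in Car4 capillary cells (13.8 to 38.0), although the venous and lymphatic intervals overlapped. Tgfbr2 ran the other way: lymphatic cells had 562 CPM (433 to 718), Car4 capillary cells 275 CPM (238 to 316), arterial cells 155 CPM, venous cells 125 CPM and general capillary cells 103 CPM (73.2 to 141). Tgfbr3 had 173 CPM in venous cells and 86.1 CPM in arterial cells, and the intervals of all other gates overlapped both. The 2 runs with at least 10 venous cells had Tgfbr3 at 66.8 and 85.4 CPM, below the pooled venous level and inside the range of the arterial runs (15.8 to 114 CPM), so the pooled order is carried by runs with fewer venous cells. Those same 2 runs had Ltbp1 at 427 and 468 CPM and Tgfb2 at 128 and 156 CPM in venous cells. A single run had at least 10 lymphatic cells, with Tgfbr2 at 479 CPM. Tgfb1 was at 236 CPM in Car4 capillary cells (202 to 274) and at 132 CPM in general capillary cells (97.9 to 174). Car4 capillary cells carried 1565 CPM of the macrophage gene Lyz2 and general capillary cells 50.1 CPM, and the part of other cells' RNA in the Tgfb1 difference was not tested. All of these values rest on few cells, 33 in the smallest gate.

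**Figure D5:**
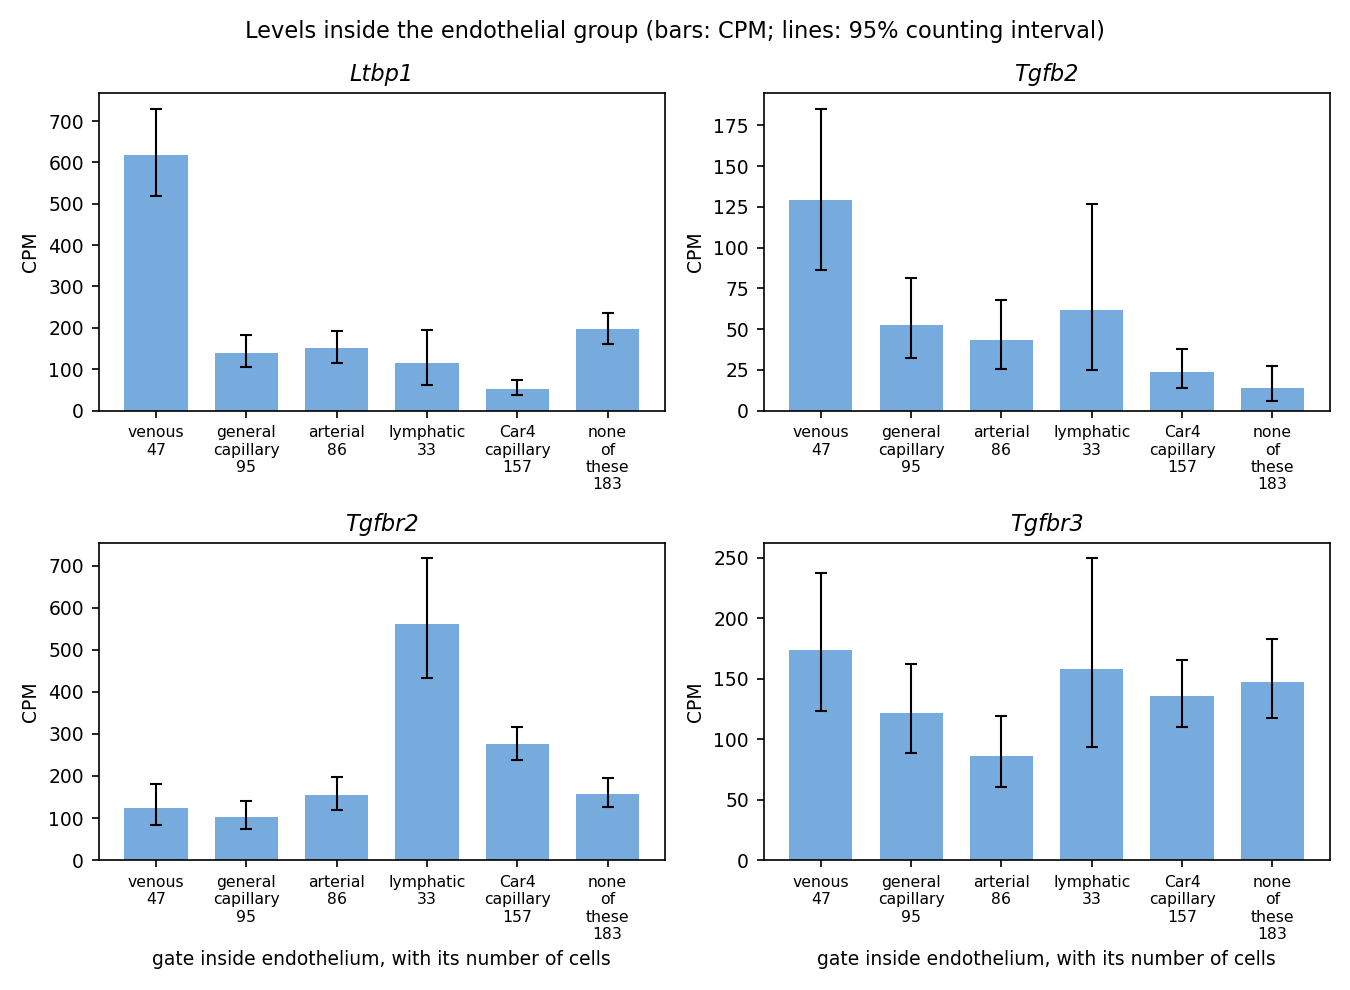
CPM (vertical axis, from 0) of Ltbp1, Tgfb2, Tgfbr2 and Tgfbr3 in gates inside the endothelial group, each named with its number of cells; bars are the summed counts of the gate and lines are 95% Poisson intervals for counting error only. Ltbp1 peaks in venous cells at 618 CPM and Tgfbr2 in lymphatic cells at 562 CPM, while Tgfbr3 is spread over all gates.

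The 4731 cells that passed no gate held 40.1% of the counts of Tgfbr1 and 37.9% of those of Tgfb1, so they were opened by further gates. The 3667 cells in none of these further gates had 349 CPM of Tgfb1 (341 to 358) and 244 CPM of Tgfbr1 (237 to 251), both inside the range of the macrophage and monocyte groups, with Ptprc at 768 CPM and Lyz2 at 6542 CPM. They were a mixture: the 2156 cells with Lyz2 at 0.3% of UMIs or more had 412 CPM of Tgfb1 (401 to 424), above the interval of every one of the 9 groups, against 231 CPM (220 to 243) in the 1511 cells below that share. The cells richer in Lyz2 had more Tgfb1 in 7 of 7 runs. For Tgfbr1 they had 260 CPM (251 to 269), against 215 CPM (204 to 226), and were higher in 4 of 7 runs. B cells (167) had 246 CPM of Tgfb1, innate lymphoid 2 cells (89) had 162 CPM, dendritic cells (235) had 141 CPM and natural killer cells (171) had 135 CPM. The B gate had Lyz2 at 2162 CPM, against 1055 in dendritic, 258 in natural killer and 77.8 CPM in innate lymphoid 2 cells. Of the 167 B cells, 124 were in 1 run, and the part of other cells' RNA in their Tgfb1 level was not tested. Type 2 innate lymphoid cells, which make type 2 cytokines, had 192 CPM of Itgav (159 to 230) and 187 CPM of Tgfbr2 (154 to 225). That pooled Itgav level lay above the interval of every one of the 9 groups, but the runs did not all keep it there. Over the 3 runs with at least 10 of these cells, Itgav ranged from 99.3 to 236 CPM (median 108). Tgfbr2 ranged from 44.2 to 303 CPM (median 247) over the same runs. Natural killer cells had 186 CPM of Tgfbr2 (160 to 215) and 55.7 CPM of Itgav. The 368 cells with at least 3 Dppa5a UMIs stood apart: Tgfb1 had 54 UMIs there (interval 9.76 to 17.0 CPM), Tgfbr1 31.5 CPM and Tgfbr2 13.5 CPM (10.2 to 17.5), each under the level of all 9 groups, whereas Ltbp1 had 19.5 CPM and Tgfbr3 21.9 CPM. Itgb6 had 0 UMIs in B, natural killer, dendritic and innate lymphoid 2 cells, which allows up to 1.64 CPM in dendritic cells and up to 4.97 CPM in innate lymphoid 2 cells, and 18 ciliated cells held 3 UMIs of it (interval 4.13 to 58.5 CPM).

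Other genes that hold or release TGF-beta were counted from a list of 20, of which 16 reached 20 CPM in a group and 10 were called, or 62.5%, against 27.8% of all genes. Endothelium led for 6 of the 16, while it led for 19.3% of all genes that reached 20 CPM. It was the called group for 5, while 14% of all genes that reached 20 CPM in endothelium were called in its favour. It held Ltbp4, a binding protein of elastic fibres, at 275 CPM, Fbn1, the fibrillin to which binding proteins attach, at 107 CPM, Bgn at 159 CPM, Emilin1 at 58.9 CPM and Lrrc32, a membrane anchor of latent ligand, at 24.7 CPM. Their folds over all other cells ran from 4.12 for Emilin1 to 140 for Bgn. AT2 cells led for Ltbp3 at 115 CPM (28.9-fold), with 89.1 CPM in the AT1 gate. They also led for Bmp1, a protease that cuts Ltbp1 and procollagens, at 539 CPM (36.5-fold). The AT1 gate led for Fbn2 at 148 CPM (19.5-fold), with 76.8 CPM in AT2 cells. It also led for Itgb3, another partner of the alpha-v chain, at 40.7 CPM (interval 28.7 to 56.1, 7.10-fold). T cells had Itgb3 at 33.8 CPM, inside that interval. In the 91 cells with AT1 markers Fbn2 had 234 CPM and Itgb3 61.5 CPM, and in the 27 without 16.8 and 8.41 CPM. Interstitial macrophages led for Mmp14, a membrane protease, at 192 CPM (179 to 206) and 4.01-fold, just inside the 4-fold limit. The gene was shared with the AT1 gate at 183 CPM and endothelium at 160 CPM. Just outside it were Itgb1 in endothelium (857 CPM, 3.55-fold) and Thbs1 in neutrophils (1238 CPM, 3.39-fold). Nrros, highest in monocytes at 281 CPM (2.95-fold), was found with Tgfb1 in 65.6% of interstitial macrophages and 48.7% of monocytes, while Ltbp1 was found with Tgfb1 in 9.65% of endothelial cells and 0.15% of monocytes, shares that were not thinned to 1 depth.

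Of 11 receptors of the wider family, all reached 20 CPM and 6 were called (54.5%), beside 27.8% of all genes. Endothelium was highest for 8 of the 11, beside 19.3% of all genes led by it. It was the called group for 4, while 14% of all genes that reached 20 CPM in endothelium were called in its favour. Endothelium held Eng (endoglin) at 473 CPM and 73.1-fold and Acvrl1 (ALK1) at 555 CPM and 30.6-fold. It held Nrp1 at 913 CPM and 10.5-fold and Bmpr2 at 853 CPM and 8.68-fold. Nrp1 stood at 519 CPM in AT2 cells as well. Eng and Acvrl1 act in the endothelial arm of the pathway, and Bmpr2 is the type II receptor for bone morphogenetic proteins. The AT1 gate led for the bone morphogenetic protein receptor Bmpr1a at 196 CPM (8.03-fold) and the activin receptor Acvr2b at 31.9 CPM (5.04-fold). Bmpr1a stood at 117 CPM in AT2 cells as well. Bmpr1a had 248 CPM in the 91 cells with AT1 markers and 115 CPM in the 27 without, and Acvr2b 43.4 and 14.0 CPM. Acvr1, at 90.6 CPM in endothelium and 3.80-fold, was just outside the limit.

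Of 18 genes that carry the signal inside the cell, 17 reached 20 CPM and 5 were called (29.4%), close to the 27.8% of all genes, which gives no result about this list. The called genes were the inhibitory Smad6 (337 CPM) and the bone morphogenetic protein mediator Smad5 (84.9 CPM) in endothelium, the inhibitory Smad7 (207 CPM) and Smad9 (42.9 CPM) in the AT1 gate, and Zfyve9 (189 CPM, 4.46-fold) in monocytes. Smad7 stood at 203 CPM in endothelium as well. In the 91 cells with AT1 markers Smad7 had 279 CPM and Smad9 70.6 CPM, and in the 27 without Smad7 had 95.3 CPM and Smad9 0 UMIs. The mediators of TGF-beta itself, Smad2 and Smad3, and the shared partner Smad4 were highest in the AT1 gate at 1.63-fold, 2.11-fold and 1.87-fold. Smad3 ranged from 6.49 CPM in alveolar macrophages to 122 CPM in the AT1 gate. The 91 cells with AT1 markers had 121, 176 and 170 CPM of Smad2, Smad3 and Smad4, and the 27 without had 104, 39.2 and 86.9 CPM.

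Genes often used as readouts of TGF-beta numbered 19, of which 12 reached 20 CPM and 6 were called (50%), beside 27.8% of all genes. The AT1 gate led for 3 of the 12, the matricellular genes Ccn1 at 497 CPM (40.4-fold) and Ccn2 at 387 CPM (105-fold) and Smad7. It led for 25.1% of all genes that reached 20 CPM, so the number led gives no result about this list. Ccn1 stood at 186 CPM in endothelium as well. Other readouts were higher elsewhere. Tgfbi had 70.4 CPM in the AT1 gate against 619 CPM in interstitial macrophages, and Pmepa1 had 42.9 against 114 CPM. Bhlhe40 had 16.5 CPM in the AT1 gate against 150 CPM in alveolar macrophages. For Tgfbi, Pmepa1 and Bhlhe40 the AT1 values are those of the whole gate and were not split by AT1 markers. Ccn1 had 797 CPM in the 91 cells with AT1 markers and 33.6 CPM in the 27 without, and Ccn2 628 and 14.0 CPM. Endothelium led for the collagen receptor chain Itga1 at 122 CPM (11.4-fold) and for Id1 at 246 CPM (4.52-fold), which bone morphogenetic proteins also induce. Id1 stood at 187 CPM in neutrophils as well. T cells led for Itgae, the alpha chain that holds T cells in epithelium, at 51.7 CPM (8.22-fold), with 103 CPM in the gamma-delta split and 28.2 CPM in the Cd8 split. The runs did not keep that order: their median was 33.6 CPM (17.6 to 136, 5 runs) in the gamma-delta split and 48.7 CPM (6.27 to 58.7, 4 runs) in the Cd8 split. The fibroblast readouts Col1a1, Col1a2, Col3a1, Acta2 and Tagln stayed under 20 CPM in every group. The median log2 fold of the leading group was 2.45 over the 8 genes that reached 20 CPM, 2.44 over the latency list, 2.33 over the wider receptors, 1.44 over the signalling genes, 1.81 over the readouts and 1.16 over all genes.

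The genes most alike in their pattern over the 9 groups were sought by Pearson correlation of log2(CPM + 10) over 10274 genes; with 9 points that share the same libraries this is a description. For Itgb6 they were Mab21l4, S100a14 and Col4a4 (r of 1.00 each to 2 decimals), all led by the AT1 gate, where Col4a4, a basement membrane collagen chain, had 1698 CPM. For Tgfb2 they were 1010001N08Rik, Ccn2 and Fam174b (r = 1.00, 1.00 and 0.99). For Ltbp1 they were Ntn1, Uaca and Zfp521 (r = 1.00, 0.99 and 0.99) and for Tgfbr3 Lysmd2, Csnk1a1 and the endothelial adhesion gene Pecam1 (r = 0.97, 0.96 and 0.96). For Tgfbr1 they were Tgfbi, a gene named for its induction by TGF-beta and at 619 CPM in interstitial macrophages, Aph1c and Sgpl1 (r = 0.96, 0.96 and 0.95), and for Tgfb1 the chemokine gene Ccl9, Atp13a2 and Ggta1 (r = 0.96 each). For Tgfb3 they were Dbp, Dusp4 and Polr1c (r = 0.96, 0.95 and 0.95), and for Tgfbr2 Mettl14, Cdca7l and Tmem64 (r = 0.96, 0.95 and 0.95). Itgav had the loosest matches of the 10, with Fbxo4, Yipf1 and Foxn3 (r = 0.88, 0.86 and 0.84). For Itgb8, on 16 UMIs, they were Trib2, Tbxa2r and 4833403J16Rik (r = 0.99 each).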

How the data were processed

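The unit is raw UMI counts, deposited by the authors as 1 merged table of 32285 genes and 11806 cells (77020720 UMIs). The submitters' processing notes name Cell Ranger 1.3.1 and mm10, and neither strand nor intron settings are stated there. Per the labels, a droplet 3' kit was used. The cells were filtered before deposit, since the lowest number of genes in a cell is 800 and the highest mitochondrial share is 9.99%. Column names hold only barcodes and 7 suffixes, and 0 per-sample columns lay outside those used. The planned edgeR comparison of hyperoxia with air and any pairing by replicate number could not be run.

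Cells were gated on UMIs, the first gate passed winning, as the rule for the 10 genes sets: AT2, Sftpc at least 3% of UMIs; AT1, Rtkn2 at least 3; endothelium, Cdh5 and Cldn5 at least 2; alveolar macrophage, Ear1 and Marco at least 2; interstitial macrophage, C1qa and C1qb at least 5; monocyte, Ly6c2 and F13a1 at least 3 or Ace and Adgre4 at least 2; neutrophil, S100a8 and S100a9 at least 2% and Csf3r at least 1; T, Cd3e and Trac at least 2. A cell kept its check markers where their share was at least 0.25 of the median of its gate. Counts were summed per group and given as CPM with exact 95% intervals (Python 3.11.15, numpy 2.4.6, scipy 1.17.1), and 0 counts were given the limit of 3 counts. Doublets were scored with Scrublet in scanpy 1.11.5; the automatic threshold marked 62 cells (0.525%), and all cells were kept, with removal of 193 as an alternative. The genes named are the 10 members, the called genes of 4 pathway lists, list genes just outside the limit or discussed beside them, and for each member the 3 genes of highest correlation, leaving out gate genes. Coding sequences came from GENCODE M21 and were aligned with Biopython 1.88. The members and lists were chosen with earlier results of these data known. A further gene of the readout list is not reported here and was left out of that list's counts. Further gates took, in order, inside endothelium, Car4 and Ednrb (Car4 capillary) at least 3, Gja5, Gja4 and Cxcl12 (arterial) at least 3, Prox1 and Mmrn1 (lymphatic) at least 2, Vwf and Slc6a2 (venous) at least 3, and Gpihbp1 and Plvap (general capillary) at least 3. T cells were split by at least 2 UMIs of Trdc and Tcrg-C1, then of Cd8a and Cd8b1, and at least 1 of Cd4. The splits of the monocyte and T groups and of the other cells (by Lyz2) and the reading of runs 1 and 6 were chosen after the values were seen.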

Additional observations from a re-analysis of the deposited data

How the results depend on the processing

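No paired analysis was possible because no cell could be tied to a library, and the comparison of hyperoxia with air, with its replicate block, was not run. The count of called genes was 4 in every setting but a minimum of 10 CPM, which added Tgfb3 and gave 5. Under 15 alternatives that changed cells, gates, weights or runs, 9 or 10 of the 10 genes kept their leading group: Tgfbr2 kept it in 9 of 15, Itgb8 in 13 and the other 8 genes in 15. Restricting to gated cells that kept their check markers, or leaving out cells with at least 3 Dppa5a UMIs, was chosen after seeing the data. Leaving out run 1 gave Tgfb2 147 CPM and Itgb6 319 CPM in the AT1 gate, and the cause was not tested. Itgb6 there was 719 CPM in cells that kept their markers and 616 CPM without Dppa5a-high cells. Counting error limits Itgb8 (16 UMIs), Tgfb3 (171 UMIs) and the endothelial gates of 33 and 47 cells. Thinning to 2000 UMIs left out 1423 cells and gave a share of AT1-gate cells with an Itgb6 UMI of 52.7%, against 28.8% at 1000 UMIs and 2.51% in AT2 cells at 2000. Pseudocounts of 1 and 50 CPM kept 0 and 2 of the 3 genes most alike to Tgfb2, and 2 and 0 of those most alike to Ltbp1.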

Other observations

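Of the 68 AT1-gate cells with a Tgfb2 UMI, 66 also held Itgb6, beside 90 of all 118 AT1-gate cells. The 27 cells that lacked AT1 markers held 4 of the gate's 195 UMIs of Tgfb2 and 10 of its 407 UMIs of Itgb6. Ltbp1 was found with Tgfb2 in 6 of 118 AT1-gate cells and in 21 of 601 endothelial cells (3.49%, 2.18 to 5.29). The AT1-gate cells of runs 4, 5 and 7 (5, 2 and 12 cells) held Itgb6 at 37.1, 33.1 and 128 CPM, and 3, 1 and 6 of them lacked the AT1 check markers. Runs 2, 3 and 8 had 1 AT1-gate cell each, all with their markers, and these cells held 13, 5 and 7 UMIs of Itgb6.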
